A study of Homo sapiens with 6 samples.

Results

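Of the 103 annotated protein-coding genes whose symbols mark them as Wnt, BMP, activin or TGF-beta ligands, receptors, SMADs, inhibitors or feedback genes, 28 stood in the authors' deposited comparison of 6018 genes, and they are the subject here. They were matched by symbol, under a rule chosen with earlier results of these data known. The rule covers the families WNT, FZD, LGR4 to LGR6, AXIN, DKK, SFRP, BMP, BMPR, TGFB, SMAD, ACVR, INHB, ID, GREM and LTBP, with NOTUM, BAMBI, RNF43, ZNRF3, NOG, CHRD, LEF1, TCF7 and CCN1. Gene types were taken from GENCODE release 29 (GRCh38), and 2 further rows of other types, the pseudogene BMPR1AP1 and the divergent transcript BMPR1B-DT, were set aside. The RNA came from C4-2B, an established cell line of human prostate cancer in the LNCaP lineage, which the labels give as a bone metastasis and as a derivative of xenografts grown in castrated mice. The labels define 3 parental libraries, from cells at passage 0 that were carried in 1% DMSO, and 3 libraries of 1 resistant subline at passages 15 to 18. The resistant cells had been passaged in rising abiraterone, an inhibitor of the androgen-synthesis enzyme CYP17A1, from 1 to 20 µM for at least 6 months and were then held in 5 µM. Both lines grew in 10% serum, and the extraction protocol names 10 µM abiraterone in a wording that can be read as covering either line or both.

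The table compares a condition C with a condition V and has no column per library. Values per sample, the overlap of libraries between groups and depth per library are therefore unknown. The header spells out C as control and V as vehicle, whereas the letter V occurs in the titles of the parental libraries and no title marks a library as C. Sides are kept as C and V below and are not translated into resistant and parental. A log2 fold change is that of C over V with its listed standard error, so a negative value is higher expression in V. Genes with a listed adjusted p under 0.05 (Benjamini-Hochberg over the authors' DESeq2 Wald tests) are referred to as called. The table is itself a selection, since its smallest absolute log2 fold change is 1.20 and every p in it is below 0.05. A gene that is not listed may have missed either limit, and nothing about its level follows from that.

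Wnt proteins are secreted lipid-modified ligands that bind Frizzled receptors, and in the canonical branch they stabilise beta-catenin, which then acts with TCF and LEF factors on target genes such as AXIN2 and RNF43 that damp the signal. BMPs, activins and TGF-beta bind paired serine/threonine kinase receptors that phosphorylate SMAD proteins. Their targets include the ID genes, the inhibitory SMADs and the decoy receptor BAMBI. In the prostate these pathways are known from branching growth, from exchange between epithelium and stroma, and from bone metastasis.

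The BMP and TGF-beta genes that were called lay almost wholly on the V side, while the Wnt genes were divided. Of the 28 members, 27 were called, 20 of them toward V and 7 toward C. Because the table is preselected, 92.6% of its 2954 protein-coding genes were called, 31.6% as higher in C and 61% as higher in V, so the number called says little about the members. Against all annotated protein-coding genes the called share was 26.2% of the 103 genes that the rule covers and 13.7% overall. Among called protein-coding genes 65.9% were higher in V, compared with 74.1% of the called members, 92.9% of the 14 called BMP and TGF-beta members and 53.8% of the 13 called Wnt members. The median log2 fold change was -2.72 for the BMP and TGF-beta members, -1.40 for the Wnt members and -1.55 for all called protein-coding genes. These shares and medians are descriptions and were not tested.

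**Figure D1:**
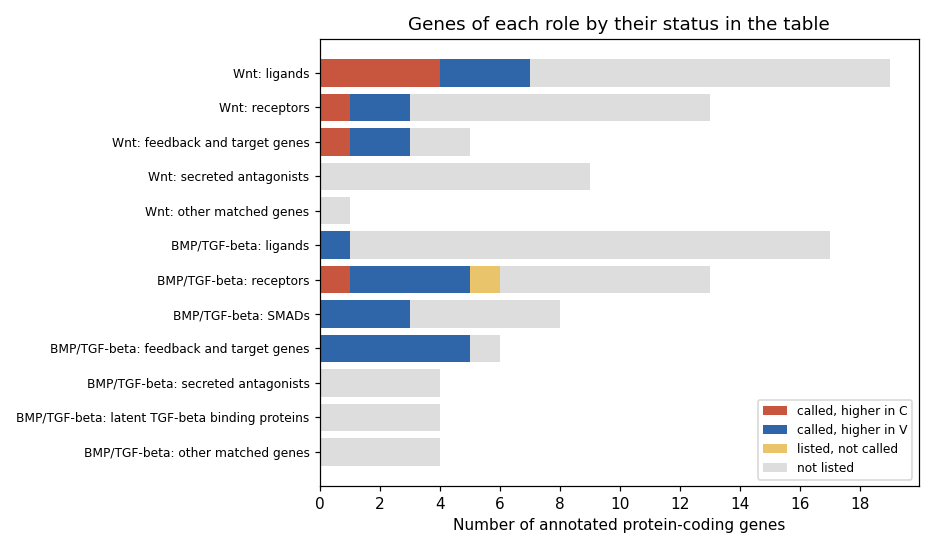
Number of annotated protein-coding genes (x axis) in each role (y axis), divided into genes called higher in C, called higher in V, listed but not called, and not listed. All 5 listed BMP and TGF-beta feedback and target genes and all 3 listed SMADs are higher in V, the Wnt ligands split into 4 and 3, and no secreted antagonist is listed.

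The called Wnt ligands lay on both sides. Of 19 annotated WNT genes 7 were called, 3 toward V and 4 toward C. WNT10B, which acts mainly through beta-catenin, was the best determined on the C side, with a log2 fold change of 1.75 ± 0.22 in the authors' deposited table (adjusted p = 7.48e-15). This is a 3.36-fold difference with a 95% interval of 2.50 to 4.51. Derived levels were 123 in C and 36.7 in V, in normalised counts, where derived means the pair of levels that gives the listed mean and fold change when both sides hold equally many libraries. WNT8B (2.16 ± 0.38), a ligand of the developing brain, WNT10A (1.74 ± 0.49), a ligand of skin and teeth, and WNT3 (1.27 ± 0.43), a ligand of early axis formation, likewise shifted toward C, as the authors' deposited table lists them. WNT10A and WNT3 were low, at derived C levels of 15.5 and 26.5 normalised counts.

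On the V side stood WNT9A, a ligand of joint formation, at -2.06 ± 0.27 in the authors' deposited table (adjusted p = 4.96e-13), with derived levels of 20.3 in C and 84.5 in V. WNT5A, the prototype of the ligands that act without beta-catenin, was listed at -1.44 ± 0.27 in the authors' deposited table, with derived levels of 30.2 and 81.6. WNT4, a ligand of kidney and gonad development, was the called member closest to the threshold, with an adjusted p of 0.0481 at -1.55 ± 0.67 in the authors' deposited table. It was low as well, at derived levels of 3.49 normalised counts in C and 10.2 in V. Of the 21 pairs of called WNT ligands, 12 had 95% intervals that did not overlap, and each of these set a ligand higher in C against one higher in V, which the table's limit on p already entails. Ligands on the same side could not be told apart by their intervals. Several of the ligands have a WNT gene as a close neighbour in GENCODE release 29: WNT3 lies 47 bp from WNT9B on chromosome 17, WNT10A 6130 bp from WNT6 on chromosome 2, WNT10B 6690 bp from WNT1 on chromosome 12 and WNT9A 59153 bp from WNT3A on chromosome 1. None of these neighbours was listed.

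Among the 17 annotated BMP, activin and TGF-beta ligands only TGFB1 was listed. TGFB1 encodes the main TGF-beta isoform of most tissues and spans 41301587 to 41353911 on chromosome 19 in GRCh38. It stood on the V side at -4.67 ± 1.24 in the authors' deposited table (adjusted p = 0.000583), with derived levels of 1.62 normalised counts in C and 41.5 in V. The 95% interval of the difference ran from 4.73-fold to 138-fold. BMP2, BMP4, BMP6, BMP7, INHBA, INHBB, TGFB2 and TGFB3 were among the 16 that were not listed.

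**Figure D2:**
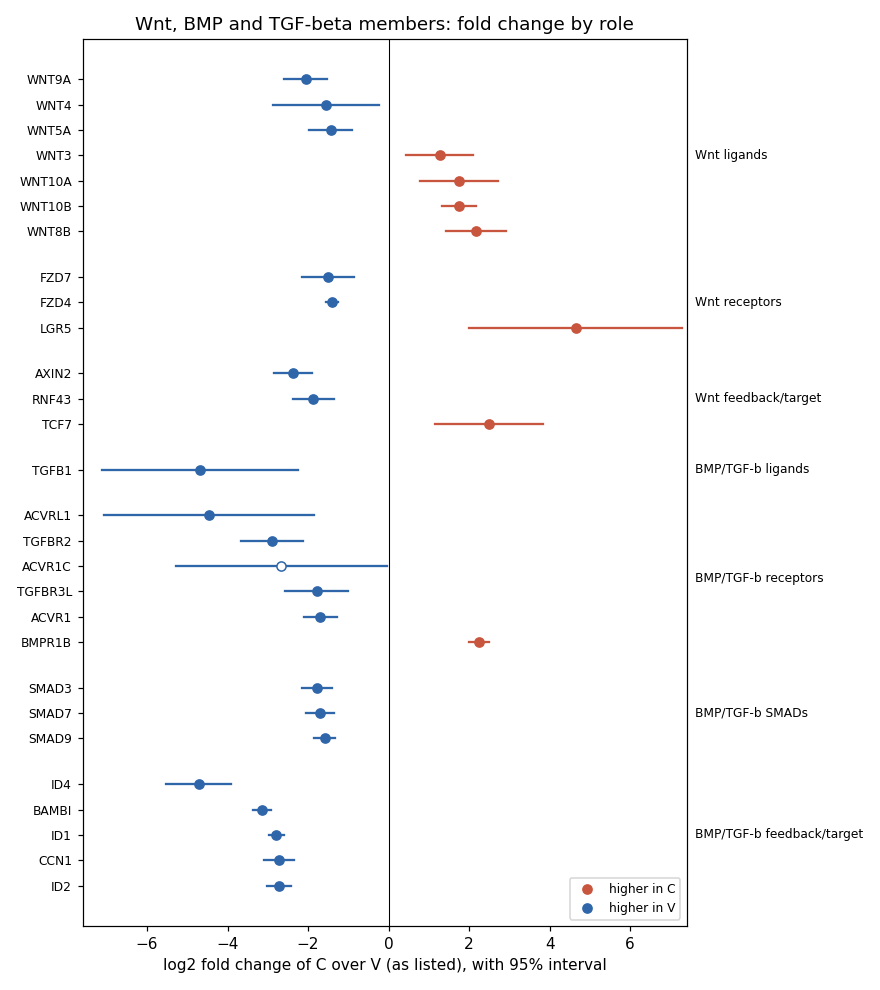
Log2 fold change of C over V (x axis) for the 28 members, grouped by pathway and role (y axis); points are the listed estimates, lines their 95% intervals, red is higher in C, blue is higher in V, and the open point is the 1 member not called. Apart from BMPR1B every BMP and TGF-beta member lies left of 0, whereas each listed Wnt role has members on both sides.

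Of the 8 called receptors of both pathways 6 were higher in V, a share near the 65.9% of all called protein-coding genes. FZD4, a Frizzled receptor that also serves the ligand norrin in the retina, was 2.65-fold higher in V (95% interval 2.38 to 2.95), at -1.40 ± 0.08 in the authors' deposited table. Its standard error was the smallest of any called member, and its derived levels were 414 normalised counts in C and 1097 in V. FZD4 shares 1399 bp, 18.9% of its exon length, with PRSS23 on the opposite strand, and PRSS23 itself stood at -7.80 ± 0.30 (in the authors' deposited table, derived levels 8.07 and 1800). Whether the counting used strand is not given in the sources used here, so reads of the 2 genes may not have been separated, and the part of PRSS23 in the FZD4 value was not tested. FZD7, a Frizzled receptor of stem and progenitor cells, was listed at -1.50 ± 0.33 in the authors' deposited table, with derived levels of 20.6 and 58.3.

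LGR5 stood on the C side with a wide error. It encodes a receptor for R-spondins and is a marker of intestinal stem cells, and it lies at 71439770 to 71586310 on chromosome 12. The authors' deposited table lists it on the C side, at 4.64 ± 1.35 (adjusted p = 0.00181). Normalised counts derived for LGR5 were 1297 in C against 51.9 in V, a 25.0-fold difference with a 95% interval from 4.02-fold to 155-fold. The standard error was out of step with the level: none of 540 listed protein-coding genes with a mean within 2-fold of that of LGR5 had one as large, and their median was 0.10. Since every listed p is below 0.05, genes with a much smaller fold change could not have been listed with such an error. The closer comparison is with the 30 of the 540 whose absolute log2 fold change was within 1 of that of LGR5. Their median was 0.16 and none reached 1.35. The table does not show which libraries stand behind this spread. TSPAN8, whose gene body overlaps LGR5 on the opposite strand without sharing exon bases, had the reverse direction at -4.69 ± 0.84 in the authors' deposited table, with derived levels of 55.2 in C and 1422 in V.

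**Figure D3:**
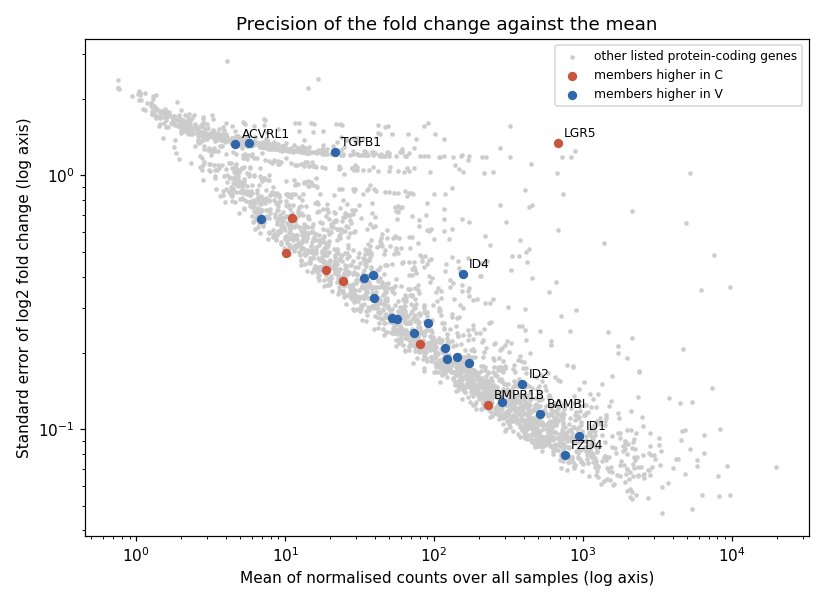
Standard error of the log2 fold change (y axis, log scale) against the listed mean in normalised counts (x axis, log scale) for members higher in C (red), members higher in V (blue) and all other listed protein-coding genes (grey). Most members follow the falling trend from a mean of 4.64 (ACVRL1) to 946 (ID1), and LGR5 stands far above it at a standard error of 1.35.

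Of 13 annotated receptors for BMPs, activins and TGF-beta, 5 were called, 4 higher in V. TGFBR2, the type II receptor that binds TGF-beta first, was listed at -2.90 ± 0.40 in the authors' deposited table, with derived levels of 8.02 in C and 59.8 in V. ACVR1, a type I receptor for BMPs and activins also called ALK2, was the most precisely measured of the receptors on the V side (-1.70 ± 0.21 in the authors' deposited table, derived levels 55.9 and 182). TGFBR3L, a relative of the co-receptor betaglycan, stood at -1.79 ± 0.40 in the authors' deposited table, with derived levels of 17.6 in C and 60.7 in V. A listed antisense gene shares 17.7% of the TGFBR3L exon length. That antisense gene was not called and had derived levels of 0.396 in C and 4.41 in V. Its part in the TGFBR3L value was not tested. ACVRL1, the type I receptor known from endothelium, was listed at -4.46 ± 1.33 in the authors' deposited table. Derived levels were 0.404 in C and 8.87 in V, too low on the C side for its fold change to have a meaningful size. ACVR1C, the type I receptor ALK7, was listed but not called (-2.66 ± 1.34 in the authors' deposited table, p = 0.0471, adjusted p = 0.0972). It lies 107439 bp from ACVR1 on chromosome 2, and both had negative values.

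BMPR1B, a type I BMP receptor known from cartilage and ovary, was the 1 called receptor of these families on the C side. Its log2 fold change in the authors' deposited table was 2.25 ± 0.12 (adjusted p = 2.33e-71), a 4.76-fold higher level in C with a 95% interval of 4.02 to 5.64. Derived levels were 379 normalised counts in C and 79.5 in V, and the standard error was in the range of its peers (median 0.15 over 683 genes of like mean). Among the 4 called receptors on the V side, the intervals of TGFBR2 and ACVR1 did not overlap. The divergent transcript BMPR1B-DT had a positive value too (3.94 ± 1.86 in the authors' deposited table) but it was not called, at an adjusted p of 0.0737 and a mean of 1.10. BMPR1A, BMPR2, TGFBR1, ACVR1B, ACVR2A and ACVR2B were not listed.

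The 3 listed SMAD genes had the narrowest range of fold changes among roles with more than 1 called member. Of 8 annotated genes 3 were called, each on the V side: SMAD3, which carries TGF-beta and activin signals (-1.77 ± 0.19), SMAD7, the inhibitory SMAD (-1.70 ± 0.18), and SMAD9, a BMP SMAD (-1.59 ± 0.13), as given in the authors' deposited table. Their folds were 3.42, 3.25 and 3.01, and the 95% intervals of all 3 pairs overlapped. Derived levels (C, then V) were 64.8 and 222 for SMAD3, 80.2 and 261 for SMAD7, and 143 and 431 for SMAD9. The shared partner SMAD4, the receptor SMADs SMAD1, SMAD2 and SMAD5 and the inhibitory SMAD6 were not listed.

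Feedback and target genes of BMP and TGF-beta held the 2 members with the smallest p, ID1 and BAMBI. Of 6 annotated members 5 were called, each of them higher in V, and their median was -2.79 on the log2 scale. For all annotated protein-coding genes the called share was 13.7%, and 65.9% of called ones were higher in V. The count depends on how roles were assigned. A wider list of 19 BMP targets, which also holds SMAD6, NOG and GREM1, had 8 called, all toward V. ID1, an inhibitor of basic helix-loop-helix factors and a direct BMP target, had an adjusted p of 5.29e-191 at -2.79 ± 0.09 in the authors' deposited table. Only ID1 and BAMBI were among the 100 listed protein-coding genes with the smallest p, at ranks 73 and 97. Derived levels of ID1 were 238 in C and 1654 in V, a 6.94-fold difference with a 95% interval of 6.11 to 7.89. BAMBI, a truncated receptor that blocks BMP, activin and TGF-beta signalling, stood at -3.15 ± 0.11 in the authors' deposited table, with derived levels of 105 and 927.

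ID2, an ID protein of lymphoid and mammary development, followed at -2.71 ± 0.15 in the authors' deposited table, with derived levels of 104 and 680. CCN1, a matrix-bound protein induced by YAP and TGF-beta, stood at -2.73 ± 0.19 in the authors' deposited table, with derived levels of 31.9 and 211. BAMBI, ID1, CCN1 and ID2 had overlapping intervals. ID4, a family member often silenced in prostate tumours, lay apart from each of these 4 by its interval. It was 26.3-fold higher in V (95% interval 15.1 to 45.9) at -4.72 ± 0.41 in the authors' deposited table, with derived levels of 11.4 and 300.3 normalised counts. Its standard error exceeded the median of 0.18 among 649 genes of like mean, and 63 of those had one at least as large. Among the 49 of these whose absolute log2 fold change was also within 1 of that of ID4, the median was 0.31 and 13 had one at least as large. ID3, the remaining family member, was not listed.

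The promoters of these genes were searched for 4 short motifs, since ID1, BAMBI and the inhibitory SMADs are textbook targets of SMAD proteins. The windows are the 250 bases before the RefSeq start (GRCh38.p14), available for 22 of the 28 members. On both strands the search covered the palindromic SMAD element GTCTAGAC, the SMAD box CAGACA, the GC-rich motif GGCGCC bound by BMP SMADs, and the TCF/LEF motif ATCAAAG; no motif contains another. GGCGCC occurred in 6 of 22 member windows (27.3%), those of ACVR1, BAMBI, SMAD3, TCF7, WNT10A and WNT9A, and in 21.6% of 15317 protein-coding windows. CAGACA occurred in 3 (13.6% against 11.4%), and the other motifs in no member window (0.163% and 1.72% of protein-coding windows). Member windows were also richer in G and C, with a median of 72.6% against 62.4%. TCF7 and WNT10A were higher in C, so matches to GGCGCC occurred on both sides. The WNT10A window, like those of SMAD7 and WNT5A, lay wholly in GENCODE exons of the gene itself. Several windows, among them those of SMAD3 and TCF7, lay inside the gene as annotated there. The windows of 4 members higher in V that hold GGCGCC are printed with that of ID1, the member with the smallest p, which holds none of the motifs. Capitals mark the matches, read 5′ to 3′ on the strand of the gene, and bases in GENCODE exons are left out, which shortens BAMBI to 71 bases with 2 of its 3 matches and ID1 to 244.
BAMBI, chr10:28677271-28677341, plus strand: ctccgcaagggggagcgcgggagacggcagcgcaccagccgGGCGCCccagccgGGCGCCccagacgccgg
SMAD3, chr15:67065352-67065601, plus strand: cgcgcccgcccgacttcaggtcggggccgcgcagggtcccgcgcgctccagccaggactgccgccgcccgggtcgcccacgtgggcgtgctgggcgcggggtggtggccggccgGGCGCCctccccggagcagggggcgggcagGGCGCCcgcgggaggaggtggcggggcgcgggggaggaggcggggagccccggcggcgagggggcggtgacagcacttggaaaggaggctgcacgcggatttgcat
ACVR1, chr2:157876331-157876580, minus strand: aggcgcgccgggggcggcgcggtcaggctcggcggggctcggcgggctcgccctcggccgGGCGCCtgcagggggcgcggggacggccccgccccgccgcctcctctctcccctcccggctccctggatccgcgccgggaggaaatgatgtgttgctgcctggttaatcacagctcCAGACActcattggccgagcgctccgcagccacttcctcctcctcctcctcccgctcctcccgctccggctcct
WNT9A, chr1:227947933-227948182, minus strand: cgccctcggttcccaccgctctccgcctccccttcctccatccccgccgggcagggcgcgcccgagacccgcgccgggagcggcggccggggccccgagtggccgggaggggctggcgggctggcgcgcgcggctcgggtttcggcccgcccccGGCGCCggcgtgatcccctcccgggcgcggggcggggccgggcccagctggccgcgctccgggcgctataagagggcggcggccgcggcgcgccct
ID1, chr20:31605039-31605282, plus strand: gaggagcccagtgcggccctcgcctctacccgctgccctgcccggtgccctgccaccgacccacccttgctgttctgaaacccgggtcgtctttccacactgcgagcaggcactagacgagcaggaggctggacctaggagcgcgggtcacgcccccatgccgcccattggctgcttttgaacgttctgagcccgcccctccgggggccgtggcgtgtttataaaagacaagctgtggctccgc

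In BAMBI the 3 matches crowd into bases -209 to -176 before the start, at -209, -196 and -181. SMAD3 holds a pair, at -136 and -106. ACVR1 holds GGCGCC at -190 and the CAGACA box at -74, and WNT9A holds a single GGCGCC at -96. A match is only a run of letters and shows no binding, and RefSeq starts need not be those used in these cells.

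Feedback genes of the Wnt pathway were divided. AXIN2, the inducible scaffold of beta-catenin destruction, was 5.18-fold higher in V (95% interval 3.74 to 7.18), at -2.37 ± 0.24 in the authors' deposited table. Its derived levels were 23.6 normalised counts in C and 122 in V. RNF43, a ubiquitin ligase that removes Frizzled receptors from the surface, lay on the V side too (-1.87 ± 0.26 in the authors' deposited table, derived levels 39.4 and 144). GENCODE release 29 places a second protein-coding gene model on the same strand over 57.6% of the exon length of RNF43 and another over 25.2% of that of AXIN2, so their counts depend on how shared reads were treated. TCF7, a DNA-binding partner of beta-catenin best known from T cells, was shifted toward C by 2.49 ± 0.68, as the authors' deposited table lists it, but at low levels of 18.7 and 3.33 normalised counts. LEF1 and ZNRF3 were not listed. The 2 feedback genes AXIN2 and RNF43 thus lay on the V side together with FZD4, FZD7, WNT5A, WNT9A and WNT4, opposite to LGR5, TCF7 and the other 4 WNT ligands.

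No secreted antagonist of either pathway was listed, among them DKK1, which blocks Wnt co-receptors, its relatives DKK2 to DKK4, the 4 SFRP genes, which bind Wnt ligands, NOTUM, which inactivates them, and the BMP antagonists NOG and CHRD. The 4 latent TGF-beta binding protein genes, LTBP1 to LTBP4, which encode matrix proteins, were likewise not listed. AXIN1, BMP1, BMP2K, TGFB1I1 and TGFBRAP1, which the symbol rule also covers, were not listed either.

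Expressed per kb of exon, as a rough guide for setting different genes side by side, the order of members differed between the sides. The length used is the union of all annotated exons, which may exceed that of the transcripts present in these cells. The limit from the overlap with PRSS23 holds for FZD4 here too. In V the highest derived levels were those of ID1 (1341 normalised counts per kb), BAMBI (401), ID2 (309), FZD4 (149) and ID4 (128). In C LGR5 came first at 247 per kb, followed by ID1 at 193, BMPR1B at 60.0 and FZD4 at 56.1. Among the listed ligands WNT10B was the highest in C at 46.9 per kb, and WNT9A was the highest in V at 21.3 per kb, ahead of WNT10B at 14.0. TGFB1 had 0.502 per kb in C and 12.8 per kb in V. Derived levels carry no error, so neighbours in this order cannot be separated. By fold change, only 1 of 26 neighbouring pairs of called members had intervals apart, namely FZD4 and WNT3, on either side of 0, where the limit on p forces a gap.

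**Figure D4:**
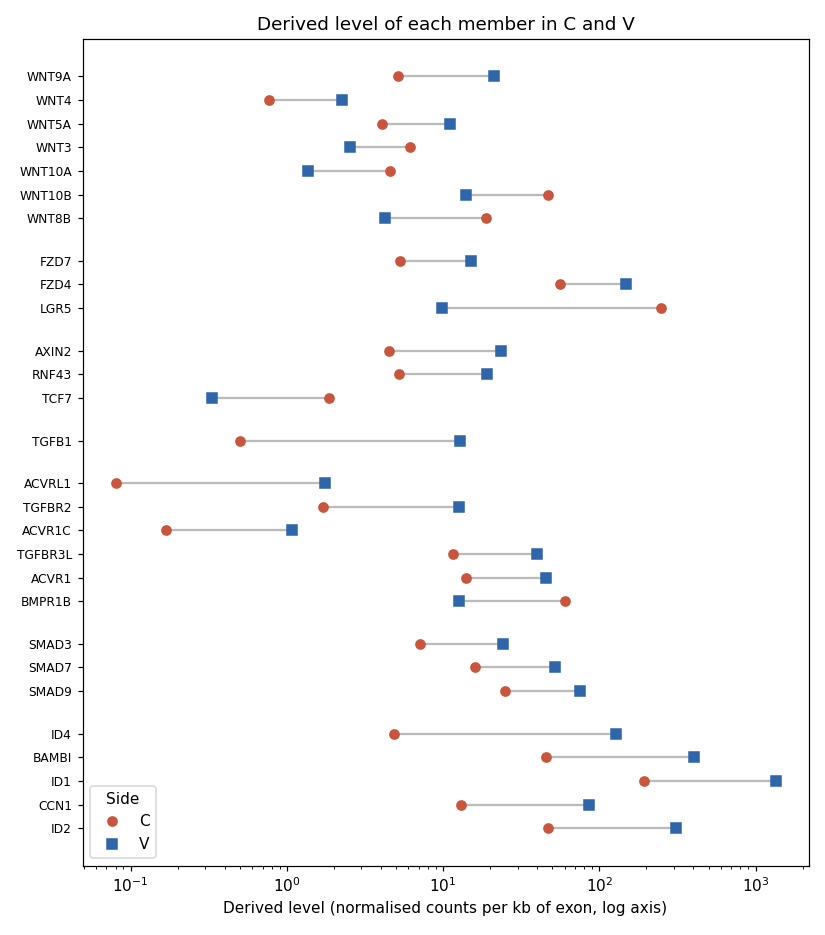
Derived level in normalised counts per kb of exon (x axis, log scale) of each member (y axis) in C (red circles) and V (blue squares), grouped by role in the same order as the plot of fold changes. ID1 reaches 1341 per kb in V, LGR5 runs from 9.88 in V to 247 in C, and ACVRL1 lies at 0.0801 per kb in C.

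Pathway genes outside the members were read from 5 further lists. Over these lists 25 of 138 annotated genes were called (18.1%, against 13.7% of all annotated protein-coding genes), 20 of them toward V and 5 toward C. The called shares of 14.5% among 55 core Wnt pathway genes and 13.2% among 53 core BMP and TGF-beta genes were close to that background. The Wnt list had 8 called genes, 5 toward V and 3 toward C. The 4 with the smallest p were TLE1, a Groucho co-repressor of TCF factors (-3.38 ± 0.13), KREMEN2, a co-receptor of DKK proteins (2.36 ± 0.18), VANGL2, a planar polarity protein (-4.74 ± 0.37), and WLS, which carries Wnt ligands to the cell surface (-3.52 ± 0.28), all as listed in the authors' deposited table. Derived levels of WLS were 21.2 normalised counts in C and 243 in V. ROR2, a receptor for WNT5A, was also higher in V but at a derived V level of only 6.43. The glypicans GPC3 and GPC4, cell-surface proteoglycans that bind Wnt ligands, were shifted toward C by 2.56 ± 0.33 and 1.68 ± 0.21, as the authors' deposited table lists them. CTNNB1, APC, LRP5 and LRP6 were not listed.

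In the BMP and TGF-beta list 7 genes were called, with 6 on the V side. GDF15, a stress-induced cytokine of the superfamily, led at -4.07 ± 0.10 in the authors' deposited table, from a derived 937 normalised counts in C to 15720 in V. SMURF1, a ubiquitin ligase for SMADs and receptors (-1.50 ± 0.09), TGIF1, a SMAD co-repressor (-1.52 ± 0.10), FURIN, the protease that matures TGF-beta (-1.51 ± 0.10), and SKIL, a SMAD-binding repressor induced by TGF-beta (-1.70 ± 0.12), lay on the V side of the authors' deposited table. TLL1, a protease that cleaves chordin, was the single gene of the list on the C side of the authors' deposited table, at 3.90 ± 1.49.

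Called target genes outside the members were mostly on the V side, as were 65.9% of all called protein-coding genes. Of 15 further TGF-beta and YAP targets 7 were called (46.7%, against 13.7% of all annotated protein-coding genes), all higher in V. They included the cell-cycle inhibitors CDKN1A (-2.86 ± 0.07) and CDKN2B (-6.57 ± 0.40) in the authors' deposited table, with derived levels in C and V of 566 and 4121 for CDKN1A and 4.24 and 403 for CDKN2B. CCN2, the relative of CCN1, had derived levels of 1.28 and 42.4. Of 9 further BMP targets ATOH8, a helix-loop-helix factor (-3.69 ± 0.57), and MSX2, a homeobox factor (-1.33 ± 0.26), were called, both on the V side of the authors' deposited table. Of 11 further Wnt targets, SOX4 (-1.28 ± 0.07) and MYC (1.42 ± 0.09) were called in the authors' deposited table, in opposite directions. The called shares of 22.2% for BMP targets and 18.2% for Wnt targets rest on 2 genes each and were nearer the 13.7%. SKIL, CDKN1A and several others answer to many signals, and these lists were put together with results of the series known.

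**Figure D5:**
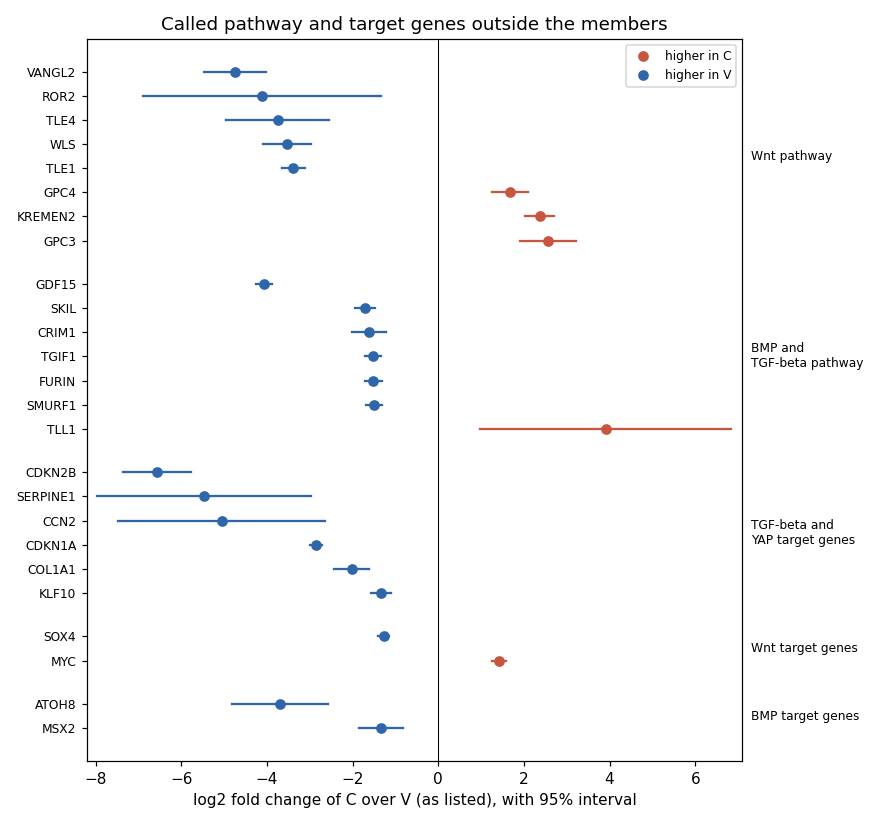
Log2 fold change of C over V (x axis) with 95% intervals for the 25 called pathway and target genes outside the members (y axis), grouped by list, red for higher in C and blue for higher in V; SKIL, in 2 lists, is drawn once. All 6 TGF-beta and YAP targets drawn and both BMP targets lie left of 0, while the Wnt pathway list has 3 genes to the right.

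Markers of other cell types were examined because TGFB1 and ACVRL1 are also expressed by blood and vessel cells. Of 8 leukocyte markers 4 were listed and of 8 endothelial markers 3 were listed, all with higher values in V. For comparison, 2954 of 19951 annotated protein-coding genes were listed, and 65.9% of the called ones were higher in V. With so few markers these counts are description only. The listed leukocyte markers summed to derived levels of 1.56 in C and 66.2 in V, and the listed endothelial markers to 5.16 and 59.1. Only genes that differ are listed, so a gap between such sums follows in part from the selection. CD68, in the leukocyte sum, was not called (adjusted p = 0.0976 in the authors' deposited table). Defining markers that were not listed included CD3E, CD79A and CSF1R for leukocytes and CDH5, VWF, KDR, TEK and CLDN5 for endothelium. Of 10 fibroblast markers COL1A1 was higher in V and PDGFRB higher in C, and the other 8 were not listed. Of 8 prostate luminal markers KLK2 and KLK3 were listed, both higher in C, with derived levels of 2798 in C and 466 in V for KLK2 and 15170 and 3363 for KLK3. The part of any of these markers in the values of the members was not tested. The labels give every library as C4-2B or its resistant subline, and the presence of other cell types was not tested. In bulk RNA fewer cells of a type and less RNA per cell cannot be told apart.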

How the data were processed

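RNA from 6 libraries was read as 50 bp single ends. The deposited table gives, per the file headers, a mean of normalised counts over all samples (a signal), a log2 fold change by maximum likelihood, its standard error and Wald statistic (score columns), and a p-value with its Benjamini-Hochberg adjusted value, all made by the authors with DESeq2. The submitters' processing notes name FastQC and Cufflinks 2.2.1 without a role. Not given in the sources used here are the aligner, the counter, the genome build and the number of libraries behind each side, and nothing shows that replicates were separate cultures. No fit across libraries was possible, so the listed values were used as they stand, as the design provided. Dividing each fold change by its standard error gave the listed Wald statistic within 1% for all 6018 genes. For 4 genes an adjusted p of 0 beside a p above 0 was read as not given.

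Members were joined by Ensembl identifier to GENCODE release 29, which holds 5935 of the 6018 identifiers. Intervals are the estimate ± a normal 95% margin, and exon length is the union of annotated exons. Levels were derived for equal numbers of libraries. Simulated data checked only the algebra of this step, not the assumed numbers of libraries. Every called member is named, and of each other list the genes with the smallest p and a few chosen after their values were seen. The members and lists were chosen with earlier results of these data known. pandas 2.3.3 in Python 3.11.15 was used. Protein sequences were not used here.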

Additional observations from a re-analysis of the deposited data

How the results depend on the processing

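With an adjusted p under 0.01, all 16 results (the counts and median of the members and the 5 counts among other genes) kept each count within 1.5 times its value. So did the 11 results on members with all gene types and without genes matched by symbol only; the counts among other genes were not run under these. Where the absolute log2 fold change had to reach 2, 14 members were called, 10 toward V and 4 toward C, with a median of -2.72; this kept 2 Wnt ligands, 1 Wnt receptor, 3 BMP and TGF-beta receptors and 0 SMADs, and among other genes 2 of the BMP and TGF-beta list, 0 Wnt targets and 1 BMP target. With a mean of at least 100, 12 members were called, 10 toward V and 2 toward C; this kept 0 Wnt ligands, 0 Wnt feedback genes, 0 BMP and TGF-beta ligands and 2 of their receptors, and among other genes 3 of the Wnt list and 0 BMP targets. With a 95% interval beyond a log2 of 1, 3 Wnt ligands and 1 BMP target remained called. The setting with all gene types added the called pseudogene BMPR1AP1, higher in V, and the other settings only remove genes. No direction of a member could therefore turn. Derived higher levels moved by 0.764 to 1.45 times when one side was taken to hold 2 libraries for each 1 of the other. No paired analysis was possible because the table has no column per library; for the same reason no replicate could be left out and no other scaling or filter could be tried, so a shift common to all genes cannot be seen. Of the 27 called members 7 had a mean under 30 and 3 a standard error above 1, and their sizes are the least certain.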
